A study of Mus musculus with 9 samples.

Results

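Tibialis anterior is the muscle at the front of the lower leg that lifts the foot, and its transcriptome was described here from the 3 control libraries of a series of 9. The controls were chosen by label alone: muscle of C57BL/6 mice aged 6 months that had been electroporated with a non-targeting siRNA, a small interfering RNA directed at no gene of interest. The other 6 libraries came from muscle given siRNA against UBR4, a ubiquitin ligase, and were not compared. Total RNA had been extracted with trizol and made into Illumina libraries, so every control had gone through electroporation and siRNA delivery, and no untouched muscle is described. Nothing in the labels says that the 3 libraries came from separate animals, so the spread given here is that between libraries and may be technical.

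Skeletal muscle fibres are packed with sarcomeres, in which myosin of the thick filament pulls on actin of the thin filament when calcium released from the sarcoplasmic reticulum binds troponin C. Fibres come in types set largely by the myosin heavy chain they make: type I fibres are slow and oxidative, type IIA fast and oxidative, and types IIX and IIB faster and increasingly reliant on glycolysis. Many sarcomere, calcium and metabolic proteins are likewise encoded by paired genes, with a fast and a slow or a muscle and a general form. In mice the tibialis anterior is known as a fast muscle.

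Promoters are shown for the 4 most abundant named nuclear transcripts that had an entry in RefSeq's promoter table (build GRCm38.p6). Their genes are among the largest named nuclear contributors to the transcriptome described below. Tnnt3, which was more abundant than Tnnc2, had no entry and was skipped. Each run holds 300 bases around the start of the gene, read in the direction of transcription. Capitals mark matches to CAGCTG, an E-box of the kind that myogenic factors bind, to TATAAA, the TATA box, or to the MEF2 core. The MEF2 core was searched in a loose form, CTA and TAG separated by any 4 bases, so a match need not be a MEF2 site. All 3 motifs were searched on both strands, and a TATA box can lie inside a MEF2 match. Acta1 encodes skeletal muscle actin (chr8:123894726-123895025, minus strand), Ckm the cytosolic muscle creatine kinase (chr7:19410844-19411143, plus strand), Mylpf the fast regulatory myosin light chain (chr7:127211358-127211657, plus strand) and Tnnc2 fast troponin C (chr2:164779685-164779984, minus strand).
Acta1: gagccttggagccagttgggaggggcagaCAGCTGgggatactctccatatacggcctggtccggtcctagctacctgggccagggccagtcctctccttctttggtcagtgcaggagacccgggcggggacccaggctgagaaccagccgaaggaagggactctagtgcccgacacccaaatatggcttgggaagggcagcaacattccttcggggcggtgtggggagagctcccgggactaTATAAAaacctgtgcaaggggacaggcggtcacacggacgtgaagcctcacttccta
Ckm: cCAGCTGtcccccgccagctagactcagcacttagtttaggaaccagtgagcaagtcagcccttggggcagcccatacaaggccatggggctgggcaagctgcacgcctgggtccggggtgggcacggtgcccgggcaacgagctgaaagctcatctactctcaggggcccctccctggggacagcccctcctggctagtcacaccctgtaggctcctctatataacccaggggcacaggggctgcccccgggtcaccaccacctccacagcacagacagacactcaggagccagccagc
Mylpf: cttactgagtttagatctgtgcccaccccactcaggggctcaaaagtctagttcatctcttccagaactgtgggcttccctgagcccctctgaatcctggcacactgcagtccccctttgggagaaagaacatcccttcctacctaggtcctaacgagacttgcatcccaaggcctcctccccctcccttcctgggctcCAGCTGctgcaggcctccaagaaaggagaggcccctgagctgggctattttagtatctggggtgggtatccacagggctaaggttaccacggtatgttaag
Tnnc2: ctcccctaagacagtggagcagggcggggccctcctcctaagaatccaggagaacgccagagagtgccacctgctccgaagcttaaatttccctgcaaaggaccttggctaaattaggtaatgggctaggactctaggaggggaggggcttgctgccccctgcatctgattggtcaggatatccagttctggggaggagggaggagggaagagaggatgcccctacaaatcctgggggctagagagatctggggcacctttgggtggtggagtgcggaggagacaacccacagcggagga
Acta1, Ckm and Mylpf each held a CAGCTG match, Acta1 also a TATAAA match, and the Tnnc2 window held none of the 3 motifs. Of the 100 most abundant nuclear genes, 70 had a promoter entry, and 22 of them (31.4%) held CAGCTG. The share was 14.9% of the 7027 promoters of genes at 1 FPKM or more and 16.1% of all 27025 promoters. For TATAAA the shares were 18.6%, 7.16% and 14.2%, and for the MEF2 core 7.14%, 3.07% and 3.7%, in the same order. CAGCTG was in 6 of 12 promoters of calcium handling genes and 7 of 19 of glycolytic genes but in 0 of 26 of cytosolic ribosomal protein genes. The MEF2 core was in 7 of 15 promoters (46.7%) of titin and Z-disc genes. In the other sarcomere lists it was in 1 of 15 thick filament and 0 of 14 thin filament promoters. It was in 1 of 12 promoters of calcium handling genes and 1 of 19 of glycolytic genes. Nuclear oxidative phosphorylation genes gave 1 of 28 and ribosomal protein genes 0 of 26. A match describes these letters only, and no binding was measured.

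The values are FPKM, sequenced fragments for each kilobase of a gene, relative to the depth of its library, deposited for 23231 rows. Values in threes are given throughout in the order of control replicates 1, 2 and 3. Depths recovered from the steps between low values were 29312121, 32317623 and 31177469 reads, at which 3 reads on a 1 kilobase transcript equal 0.102, 0.0928 and 0.0962 FPKM. This floor takes in counting error alone. A mean of at least 1 FPKM was reached by 10544 rows (45.4%), and 2838 rows were at 0 in all 3 libraries. Pearson's r across genes on the log2(FPKM + 1) scale was 0.9906 to 0.9929 between libraries. The libraries were not copies of each other, since the median coefficient of variation of a gene was 8.43% where counting error alone gives a median of 3.82%. Replicate 2 stood apart by 10 epidermal genes, and replicate 3 by its myosins, as described below. With 3 libraries of 1 group no test was made: an exact sign-flip test of a ratio over 3 libraries cannot give a p below 0.25. Because the labels do not give the strandedness of the protocol, levels of genes that share exons with another are uncertain to that degree. Shares of exonic bases in GENCODE M21 that also belong to another gene were 64.7% for Pln (with Gm47644), 42.9% for Acadvl (Dvl2), 32.8% for Nefl (Nefm), 26.6% for Trim54 (Gm15469), 21.9% for Atp2a1 (Rabep2) and 20% for Cacna1s (Gm37759), and those of Tnnc2, Mb and Cpt1b are given beside their values. Near-identical copies elsewhere in the genome likewise matched 79.4% of the transcript of Eef1a1, 76.8% of Ldhb, 71.5% of Slc25a5, 48.8% of Fabp3, 43.1% of Pgam1 and 38.9% of Myl1, so their levels and the ratios that hold them are uncertain.

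Libraries are compared below by how many genes of a list were highest or lowest in one of them, and such counts are read against the same share of all 10544 genes at 1 FPKM or more. As deposited, 26.9%, 30.9% and 42.2% of all genes were highest in replicates 1, 2 and 3, and 35.6%, 36.7% and 27.7% were lowest. With each library rescaled to an equal total, 14.0%, 32.6% and 53.5% were highest and 53.9%, 29.0% and 17.1% lowest. After median-ratio scaling, which divides a library by the median ratio of its genes to their geometric mean, 31.3%, 34.5% and 34.1% were highest and 31.2%, 33.9% and 34.9% lowest.

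A few transcripts held a large share of the summed FPKM. The most abundant was mt-Co1 (ENSMUSG00000064351), a mitochondrially encoded subunit of cytochrome oxidase, at 31006, 27563 and 26183 FPKM. Acta1 (ENSMUSG00000031972) came next at 20568, 19940.2 and 19902 FPKM, and relative to that level its libraries lay closer together than those of any mitochondrial transcript among the 30 most abundant genes. The 10 most abundant genes held 32.5% ± 1.23 (SD, n = 3) of all FPKM, the top 30 held 54.1% ± 1.18 and the top 1000 held 85.1% ± 0.643 (both SD, n = 3). Summing from the top, 22, 25 and 24 genes were enough to reach 50% of the total in replicates 1, 2 and 3.

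Of the 30 most abundant genes, 11 were mitochondrially encoded, 17 were named nuclear genes and 2 were rows without a gene name, Gm10925 and Gm10222. Gm10925 stood at 18019.8, 15404 and 13937 FPKM, and 99.6% of the mt-Atp6 transcript matched it at 98% identity or more. Gm10222 stood at 8189, 8486 and 7483 FPKM, and 100% of its transcript matched mt-Nd4l. Reads of such near-identical copies cannot be told apart, so the levels of both rows and of mt-Atp6 and mt-Nd4l are uncertain one against the other. Other annotated copies matched 99.6% of the transcript of mt-Co2, 99.9% of mt-Co3, 99.1% of mt-Nd3, 63.6% of mt-Nd4 and 31.3% of mt-Co1. The levels of these mitochondrial genes are therefore uncertain as well. Mitochondrial genes held 28.5%, 26.0% and 24.8% of the total FPKM, or 33.5%, 30.7% and 29.1% with Gm10925 and Gm10222 included. Replicate 1 was highest and replicate 3 lowest by either sum.

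The 17 nuclear genes of the top 30 are contractile, calcium and energy genes, and together they held 22.7%, 23.1% and 25.1% of the total. After Acta1 came Ckm, at 13556, 12387 and 14707 FPKM, whose product rebuilds ATP from phosphocreatine. Mylpf stood at 12256, 12287 and 12129 FPKM, the narrowest spread of the 17 relative to its level. The fast troponins followed: Tnnt3, the troponin that binds tropomyosin, had 10959.5, 10329 and 11364 FPKM, and Tnnc2, the calcium sensor, 9710.4, 8787 and 9838 FPKM. In the GENCODE M21 annotation 74.0% of the exonic bases of Tnnc2 also belong to Ube2c, so its level carries that uncertainty. Pvalb, the cytosolic calcium buffer of fast fibres, stood at 9381, 7885 and 10229.9 FPKM, lowest in replicate 2.

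**Figure D1:**
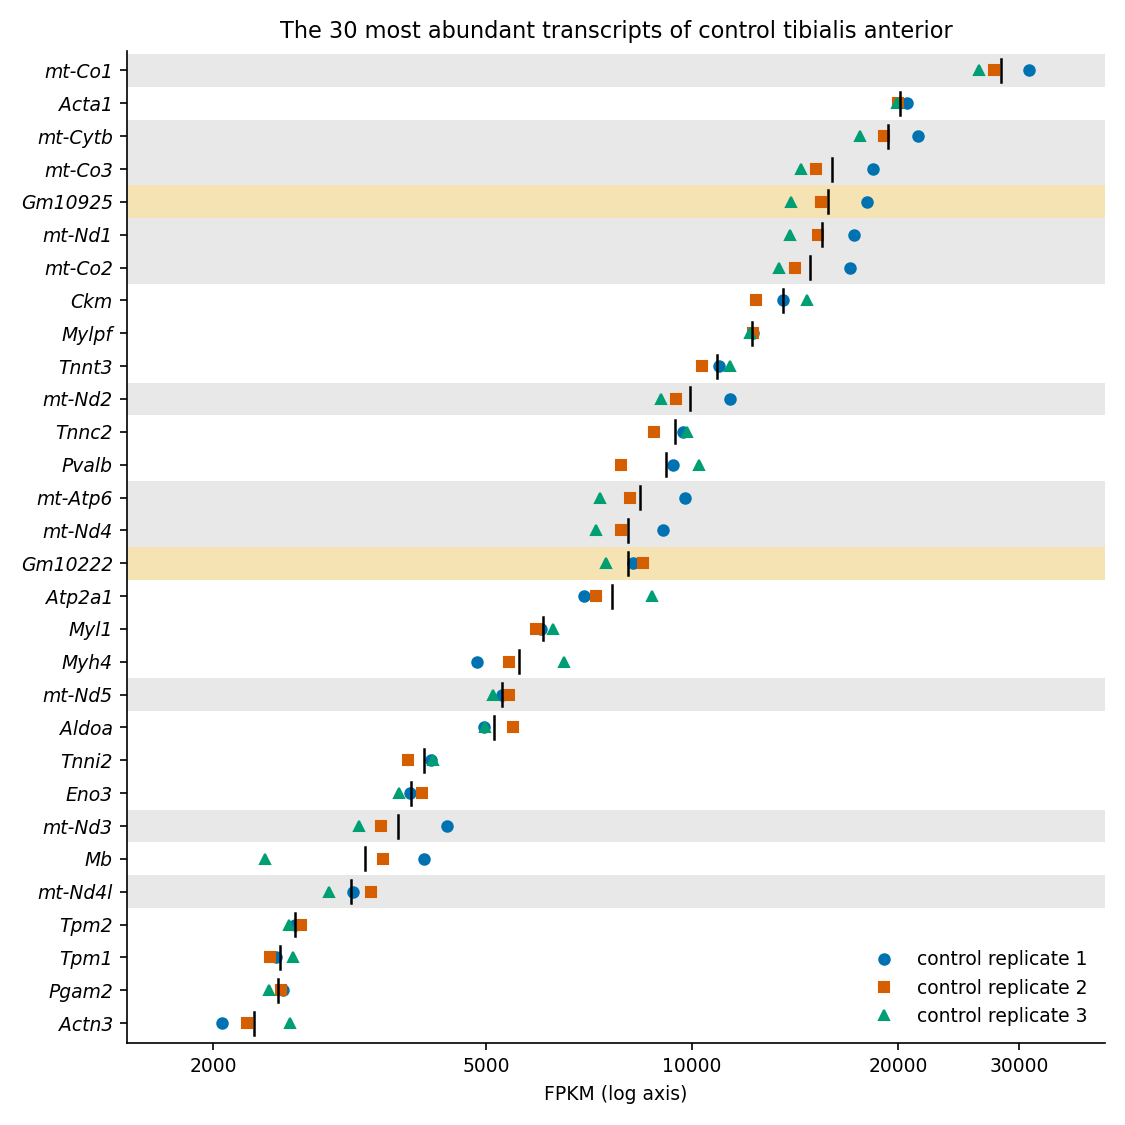
FPKM (log axis) of the 30 genes of highest mean in the 3 control libraries; symbols are libraries, vertical ticks the mean of 3, grey bands mitochondrially encoded genes and yellow bands the 2 rows without a gene name. Replicate 1 lies to the right for mt-Co1 (31006 against 27563 and 26183 FPKM) and most other mitochondrial genes, replicate 3 to the left for Mb (2382 against 4062 and 3540 FPKM).

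Grouped by function, mitochondrially encoded protein genes held 26.0% ± 1.90 (SD, n = 3) of the total from only 13 genes. The thin filament list (18 genes) held 10% ± 0.398 and the thick filament list (17 genes) 5.64% ± 0.293 (both SD, n = 3). Titin, Z-disc and cytoskeletal genes (23) held 1.82% ± 0.126 (SD, n = 3). The 58 sarcomere genes thus made 16.9%, 17.5% and 18.1% of the total.

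Energy supply followed at a similar scale. Glycolysis and glycogen genes (23) held 4.44% ± 0.307 and phosphocreatine, adenylate and nucleotide buffering genes (11) 4.35% ± 0.127 (both SD, n = 3). The 41 listed nuclear genes of oxidative phosphorylation held 2.77% ± 0.0535 (SD, n = 3), a list with a small spread. Lists of nuclear genes hold chosen members: Uqcr10 and Usmg5, for example, were left out of the 41. The shares here are of listed genes and can fall short of a whole pathway. The tricarboxylic acid cycle held 0.571% ± 0.00948, fatty acid uptake and oxidation 0.348% ± 0.0233, cytosolic ribosomal proteins 0.968% ± 0.0517 and translation factors 0.351% ± 0.0244 (all SD, n = 3). Calcium handling and excitation genes (23) held 3.84%, 3.86% and 4.76%, with replicate 3 above both others.

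**Figure D2:**
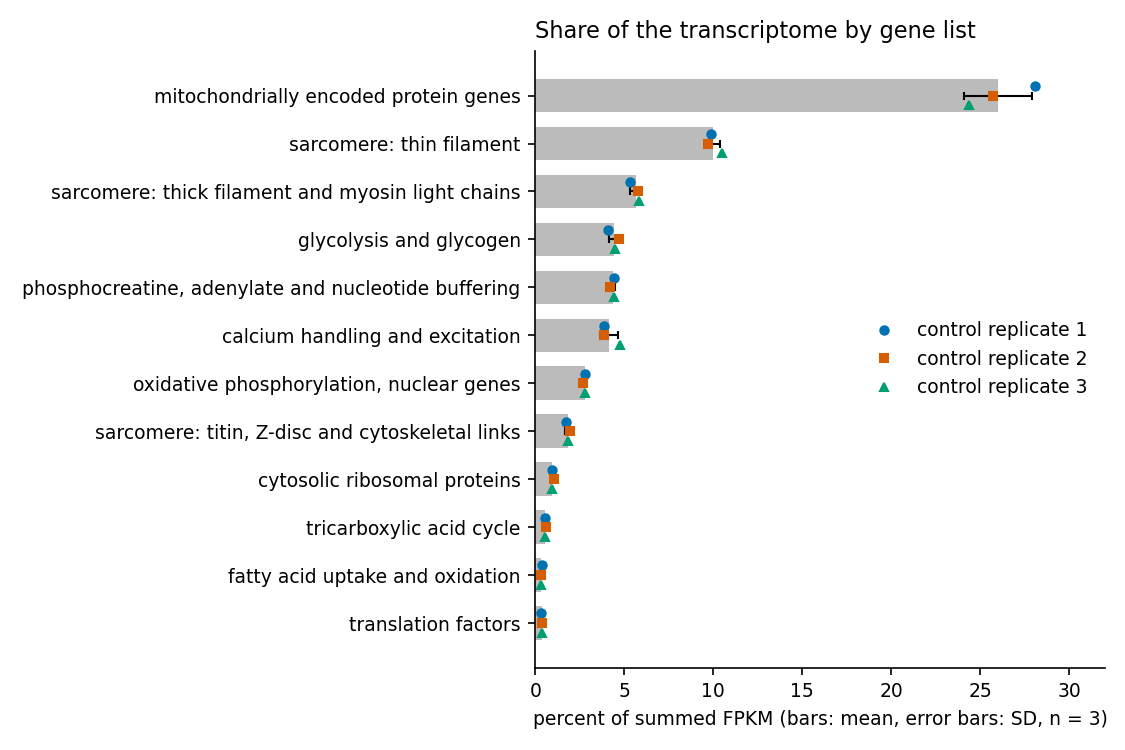
Percent of summed FPKM held by 12 gene lists; bars are means, error bars SD (n = 3) and symbols the 3 control libraries. Mitochondrially encoded protein genes lead at 26.0%, followed by the thin filament at 10% and the thick filament at 5.64%.

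The myosin heavy chains were set side by side as transcripts. Myh4 (ENSMUSG00000057003), the IIB chain, stood at 4861, 5408 and 6492 FPKM, and Myh1 (ENSMUSG00000056328), the IIX chain, at 2272, 2541 and 1231 FPKM. Myh2 (ENSMUSG00000033196), the IIA chain, stood at 96.9, 97.1 and 64.3 FPKM. Myh7 (ENSMUSG00000053093), the slow chain, was at 1.49, 0.321 and 0.0598 FPKM, which is 377, 89 and 16 recovered reads. The order IIB, IIX, IIA, slow held in each of the 3 libraries, with no overlap between neighbouring chains.

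As shares of these 4 chains, Myh4 made 67.2%, 67.2% and 83.4%, Myh1 31.4%, 31.6% and 15.8%, and Myh2 1.34%, 1.21% and 0.825%. Replicates 1 and 2 were alike, and replicate 3 had more of the IIB and less of the IIX and IIA chains. The mean share of Myh4 was 72.6% ± 9.32 and that of Myh1 26.3% ± 9.06 (both SD, n = 3), spreads that come almost wholly from replicate 3. Without replicate 3 the ratio of Myh4 to Myh1 was 2.14 and 2.13, and in replicate 3 it was 5.27. Recovered reads for the 3 fast chains were at least 14302 in each library, so counting error is small beside these differences. In bulk tissue, fewer cells of a type and less RNA per cell cannot be told apart, and the shares are of transcripts, not of fibres.

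Light chains and thin filament genes showed the same dominance of fast forms. Myl1, the fast essential light chain, stood at 6013, 5923 and 6263 FPKM against 37.8, 32.2 and 27.4 FPKM for Myl3, the slow form, ratios of 159, 184 and 229. Myl2, the slow regulatory chain, was at 3.15, 0.793 and 0.543 FPKM beside at least 12129 FPKM of Mylpf. For troponin T, the ratio of fast Tnnt3 to slow Tnnt1 was 1621, 1192 and 1449.7. Troponin I, the inhibitory subunit, gave 681, 425 and 607 for fast Tnni2 over slow Tnni1, and troponin C gave 1739, 3077 and 3748 for Tnnc2 over Tnnc1. Replicate 1 held the most Myh7, Myl2 and Tnnc1, all genes of slow fibres and heart, whereas Tnnt1 and Tnni1 were highest in replicate 2 (8.67 and 9.04 FPKM).

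Tropomyosin, which lies along actin and blocks the myosin sites, was divided almost evenly. Tpm2 stood at 2631, 2691 and 2577 FPKM and Tpm1 at 2474, 2418 and 2618 FPKM, so their order turned in replicate 3. Tpm3, the form of slow fibres, was at 6.80, 6.28 and 4.35 FPKM. Cardiac actin, Actc1, a gene also used by developing muscle, was the least even thin filament gene among the abundant ones, at 1388, 527 and 977 FPKM. The ratio of Acta1 to Actc1 was accordingly 14.8, 37.8 and 20.4. Myosin binding protein C gave a far smaller contrast, since the ratio of fast Mybpc2 to slow Mybpc1 was 2.33, 1.99 and 2.51.

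At the Z-disc, which anchors the thin filaments, Actn3, the alpha-actinin of fast fibres, stood at 2059.9, 2245 and 2587 FPKM. Actn2, the general muscle form, stood at 333, 454 and 208 FPKM, lowest in replicate 3, and the ratio of Actn3 to Actn2 was 6.19, 4.95 and 12.4. Myoz1, a calcineurin-binding protein of fast fibres, exceeded Myoz2, its slow counterpart, by 148, 121 and 194 times. Titin (Ttn), whose gene is the longest of the list, had 67.8, 85.9 and 92.9 FPKM, and nebulin (Neb), the ruler of the thin filament, 161, 230.5 and 219 FPKM. Tcap, the titin cap, had 1972, 2012 and 1746 FPKM and desmin (Des), the intermediate filament that links Z-discs, 670.1, 857 and 667 FPKM.

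In 4 of the 23 genes of the Z-disc list (17.4%), Csrp3, Ankrd2, Xirp1 and Actn2, the highest library exceeded the lowest more than 2 times, against 2.21% of all genes. Csrp3, the muscle LIM protein, stood at 28.1, 53.5 and 19.3 FPKM. Ankrd2 stood at 60.5, 86.3 and 39.8 FPKM and Xirp1 at 45.6, 55 and 25.2 FPKM. In Csrp3, Ankrd2 and Xirp1 replicate 2 was highest and replicate 3 lowest, the order also seen in Actn2, Nrap (252, 323 and 178 FPKM) and Flnc (83.9, 104 and 59.7 FPKM), the muscle filamin. Of the 23 genes of the list, 15 were highest in replicate 2, where 30.9% of all 10544 genes were, and 13 were lowest in replicate 3, where 27.7% of all were. These counts were 15 and 11 at equal totals (32.6% and 17.1% of all genes) and 17 and 15 after median-ratio scaling (34.5% and 34.9%).

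In calcium handling, Atp2a1, the fast calcium pump of the sarcoplasmic reticulum, stood at 6962, 7236 and 8729 FPKM and the slow and cardiac pump Atp2a2 at 10.5, 10.7 and 7.99 FPKM. Their ratio was 663, 676 and 1092, highest in replicate 3 as for the myosins. The store protein calsequestrin gave a steadier ratio, with Casq1 over Casq2 at 88.0, 91.6 and 79.5. Among the small peptides that inhibit the pump, myoregulin (row 2310015B20Rik) stood at 68.2, 49.4 and 74.1 FPKM, sarcolipin (Sln) at 4.24, 14.3 and 11.8 FPKM and phospholamban (Pln) at 0.908, 0.537 and 0.349 FPKM. Sarcolipin was lowest in replicate 1, and the ratio of myoregulin to Sln was 16.1, 3.46 and 6.26.

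The release channel Ryr1 had 176, 213 and 239.5 FPKM and its voltage sensor Cacna1s 113, 125 and 145 FPKM, both lowest in replicate 1 and highest in replicate 3. Ryr1 exceeded the other ryanodine receptors Ryr3 and Ryr2 by 3964 times or more in each library, with as few as 24 and 6 reads of them. Of 22 calcium handling genes at 1 FPKM or more, 16 were highest in replicate 3, against 42.2% of all genes, and 14 were lowest in replicate 1, against 35.6% of all. These counts were 16 and 17 at equal totals, where 53.5% and 53.9% of all genes were, and 15 and 14 after median-ratio scaling, where 34.1% and 31.2% were. Long genes were also low in replicate 1: of 468 genes over 12 kilobases, 68.2% were lowest in replicate 1 and 9.4% in replicate 3, and the part of gene length in these counts was not tested.

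**Figure D3:**
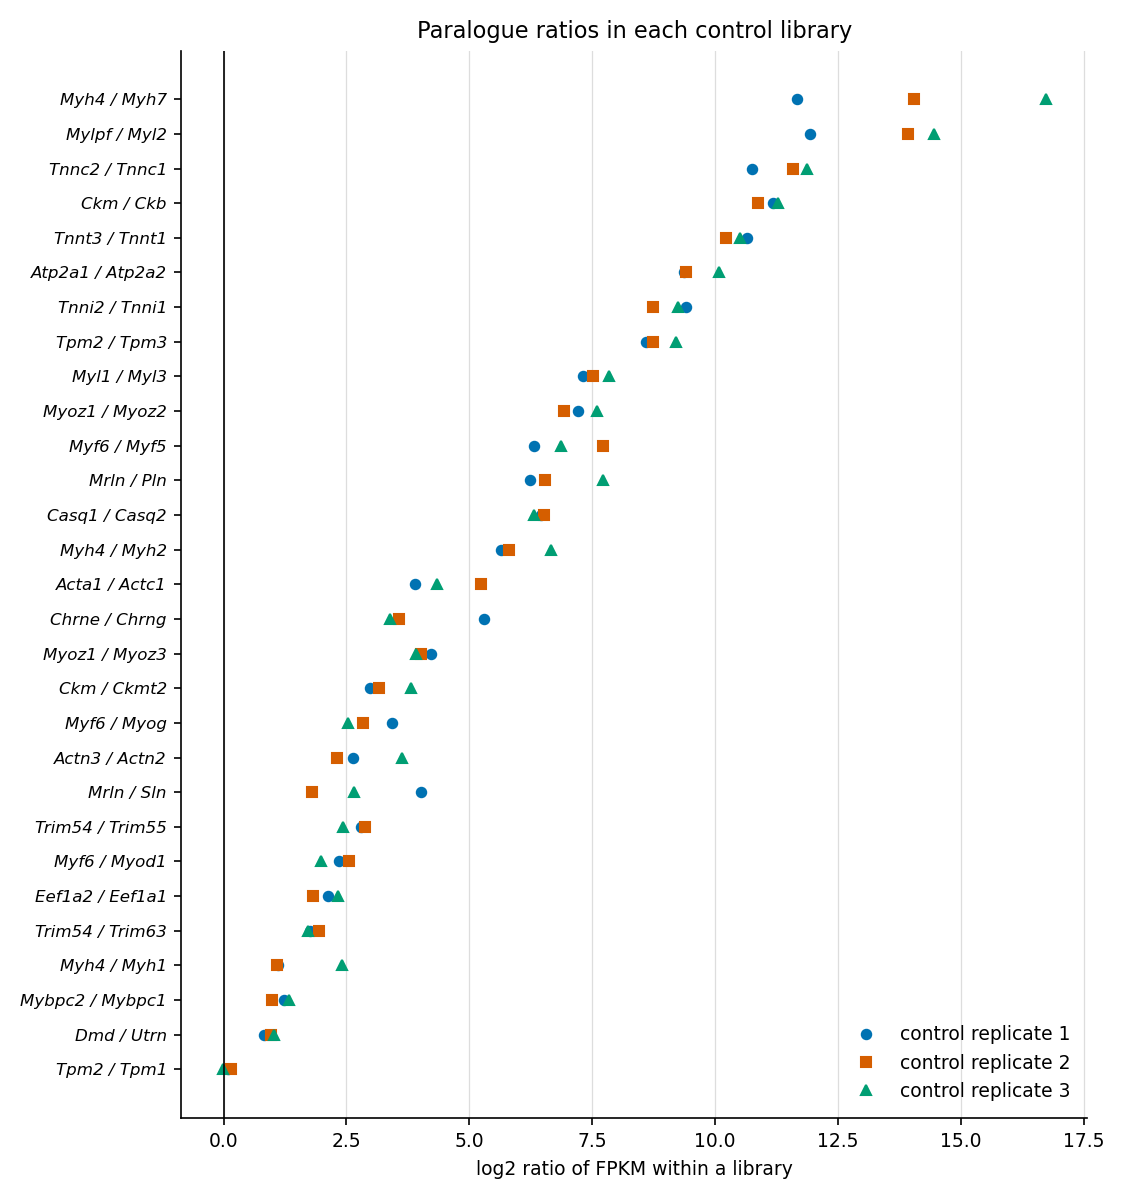
Log2 ratio of FPKM between the most abundant member of a gene family and another member, within each of the 3 control libraries (symbols); the vertical line at 0 marks equal levels, and Mrln is myoregulin. Among the ratios drawn, Myh4 to Myh7 (14.15 ± 2.53) and Mylpf to Myl2 (13.43 ± 1.33) are the largest, while Tpm2 and Tpm1 lie at 0.07 ± 0.09 (log2, SD, n = 3) and change order in replicate 3.

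Over 44 families of related genes, the most abundant member was set against the others in 61 ratios within each library. The order was the same in 3 of 3 libraries for 58 ratios; in 42 the ratio exceeded 10 in each library and in 26 it exceeded 100. The 3 whose order turned, Tpm2 and Tpm1, Cav1 and Cav3, and Pdk4 and Pdk2, all turned in replicate 3. Pdk4, the kinase that shuts off pyruvate oxidation when fat is burned, stood at 191, 210.4 and 111 FPKM, and Pdk2, its more constant relative, at 133, 137 and 148 FPKM. Cav3, the muscle caveolin, was at 44.6, 44.4 and 49.0 FPKM, level with Cav1, the form of endothelial and fat cells, at 51.6, 57.0 and 44.2 FPKM.

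Glycolytic enzymes were present almost only as their muscle forms. Aldoa, the muscle aldolase, stood at 4964, 5483 and 4987 FPKM and Eno3, the muscle enolase, at 3878, 4035 and 3738 FPKM. Eno3 exceeded the general enolase Eno1 234, 208 and 202 times, although 85.6% of the Eno1 transcript matches Eno1b and its level is uncertain. Pgam2, the muscle phosphoglycerate mutase, exceeded Pgam1 280.1, 318 and 310.1 times, and Pfkm, the muscle phosphofructokinase, exceeded Pfkl 666, 897 and 685 times. Pygm, muscle glycogen phosphorylase, which releases glucose units from glycogen, had 1804, 1955 and 2265 FPKM and exceeded the brain form Pygb 1298, 1288 and 1835 times. Less one-sided pairs were Ldha over Ldhb, the muscle and heart subunits of lactate dehydrogenase (16.9, 25.7 and 22.9), and Hk2 over Hk1 (42.7, 44.3 and 34.8). The insulin-regulated glucose transporter Slc2a4 exceeded Slc2a1 77.7, 86.3 and 83.4 times.

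The phosphocreatine, adenylate and nucleotide buffering list (11 genes) had a median coefficient of variation of 9.27%, beside 8.43% over all genes, and in 0 of its genes did the highest library exceed the lowest more than 2 times. It had 5 genes highest and 4 lowest in replicate 3, with 42.2% and 27.7% of all genes. Ckmt2 of that list is set here beside Mb and Fabp3, genes put together after their values were seen. Myoglobin (Mb), the oxygen store of oxidative fibres, stood at 4062, 3540 and 2382 FPKM, with 31.9% of its exonic bases shared with Gm49540. Ckmt2, the mitochondrial creatine kinase, stood at 1726, 1383 and 1038 FPKM, so the ratio of Ckm to Ckmt2 was 7.86, 8.96 and 14.2. Fabp3, which carries fatty acids in the cytosol, stood at 502, 419 and 353 FPKM. All 3 were lowest in replicate 3, the library with the largest share of Myh4 and the highest Atp2a1, Actn3 and Pygm. Whether these genes move together across muscles cannot be read from 3 libraries. Wider lists differed: of 41 nuclear oxidative phosphorylation genes, 23 were lowest in replicate 2 and 18 in replicate 3. The shares of all genes were 36.7% and 27.7%. These counts were 24 and 11 at equal totals (29.0% and 17.1%) and 16 and 25 after median-ratio scaling (33.9% and 34.9%). All 13 mitochondrially encoded protein genes were lowest in replicate 3 as deposited, against 27.7% of all genes.

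Muscle forms also led among respiratory subunits, by smaller margins. Cox6a2, the heart and muscle subunit of cytochrome oxidase, exceeded Cox6a1 36.7, 30.3 and 36.7 times, Cox8b exceeded Cox8a 15.1, 12.4 and 15.7 times and Cox7a1 exceeded Cox7a2 3.44, 3.04 and 3.44 times. Slc25a4, the muscle adenine nucleotide translocase, stood at 2039, 1948 and 1907 FPKM and exceeded Slc25a5 74.3, 63.2 and 76.1 times. Among the listed nuclear genes of oxidative phosphorylation the most abundant was Cox4i1 at 1125, 1031 and 1032 FPKM, followed by Atp5a1 at 955, 1015 and 949.6 FPKM. Both stood far below mt-Co1 on the same scale.

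An exception to the dominance of muscle forms was carnitine palmitoyltransferase 1, which admits fatty acids to mitochondria. Cpt1b, the muscle form, was listed at 1.03, 0.633 and 0.847 FPKM and the liver form Cpt1a at 2.89, 3.89 and 2.18 FPKM. In GENCODE M21, 81.4% of the exonic bases of Cpt1b are shared with Gm44502, a model that matches 94.8% of its transcript, and how the authors' counting treated shared exons is not stated. The part of that overlap in the low value was not tested. The other fatty acid genes of the list were far higher, with Acadvl and Acadl, the dehydrogenases of long chains, at 188, 161 and 147 FPKM and at 169, 143 and 142 FPKM.

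Ribosomal protein genes stood at a median of 84.1 FPKM, led by Rplp1 (686, 705 and 641 FPKM) and Rplp0 (414, 449.6 and 410.1 FPKM), parts of the ribosomal stalk. Eef1a2, the muscle and neuron form of elongation factor 1 alpha, stood at 703, 762 and 739 FPKM, and exceeded the general form Eef1a1 4.35, 3.52 and 5.02 times. Many ribosomal protein genes have processed copies in the genome, and their levels are uncertain to that degree. Reference genes ranged widely: Gapdh, itself a glycolytic enzyme, had 1534, 1826 and 1503 FPKM and Sdha, a subunit of succinate dehydrogenase, 269, 257 and 278 FPKM. Beta-actin (Actb), the cytoskeletal form, stood at 71.9, 76.9 and 70.9 FPKM and cyclophilin A (Ppia) at 14.3, 15.4 and 13.4 FPKM. Actb and Ppia were picked here after their values were seen. Near-identical copies in 74 other genes matched 35.7% of the Gapdh transcript, and copies in 8 matched 25.7% of that of Ppia. The levels of Gapdh and Ppia are therefore uncertain as well. No such copy was found for Actb or Sdha.

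At the fibre surface, the sarcoglycan Sgca (100.5, 99 and 98 FPKM) led the dystrophin complex, which ties the cytoskeleton to the basal lamina. Dystrophin (Dmd) itself was at 3.87, 5.27 and 5.01 FPKM, above its relative utrophin (Utrn) by 1.77, 1.94 and 2.02 times. At the neuromuscular junction the adult acetylcholine receptor subunit Chrne stood at 12.6, 8.42 and 9.03 FPKM and the fetal subunit Chrng at 0.320, 0.709 and 0.868 FPKM. Their ratio was 39.3, 11.9 and 10.4, so replicate 1 stood apart from both others, with as few as 39 reads of Chrng in a library. Scn4a, the adult muscle sodium channel, was at 56.7, 61.4 and 73.3 FPKM, highest in replicate 3.

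Markers of immature or regenerating fibres were low, and the 14 genes of the list summed to 81.8, 94.6 and 67.6 FPKM. Myh8, the perinatal myosin, stood at 6.03, 10 and 9.23 FPKM. Of the 10 list genes at 1 FPKM or more, 8 were lowest in replicate 1, against 35.6% of all genes (9 at equal totals against 53.9%, and 8 after median-ratio scaling against 31.2%). Ankrd1, a titin-associated protein that responds to injury and stretch, went against that order, with 47.9, 38.4 and 13.8 FPKM. Myog, the factor of muscle differentiation, had 4.5, 6.95 and 8.28 FPKM.

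Among muscle transcription factors, Myf6, the myogenic factor of mature fibres, was steady at 48.3, 49.8 and 48.3 FPKM. It exceeded Myod1 5.06, 5.88 and 3.94 times, Myog 10.7, 7.17 and 5.84 times and Myf5 79.7, 209.7 and 116 times. Tbx15, a factor of glycolytic fibres, had 69.4, 73.3 and 78.7 FPKM and Mef2c 65.3, 74.0 and 68.7 FPKM. Factors of the fast program were present too: Maf at 13.0, 14.3 and 17.9 FPKM, Mafa at 14.7, 12.7 and 18.1 FPKM and Sox6, a repressor of slow genes, at 11.9, 13.7 and 15.6 FPKM. Vgll2, a muscle cofactor of the TEAD factors, differed in the other direction, with 30.7, 31.4 and 19.6 FPKM.

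Of the muscle ubiquitin ligases, Kbtbd10 (188, 265 and 192 FPKM) and Trim54 (201, 210.2 and 199 FPKM) were the most abundant. Trim54, a ring finger protein of the sarcomere, exceeded the atrophy ligase Trim63 3.39, 3.85 and 3.30 times. The next were Asb2 (145, 139.6 and 153 FPKM) and Asb5 (102, 114 and 113 FPKM), subunits of cullin ligases. Ubr4, the gene that the siRNAs of the other libraries were directed at, stood at 7.82, 10.3 and 9.09 FPKM. Of 19 ligases, 14 were lowest in replicate 1, against 35.6% of all genes, 17 at equal totals against 53.9%, and 13 after median-ratio scaling against 31.2%.

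Markers of cells other than fibres were next compared. The fibroblast and fibro-adipogenic progenitor list (16 genes) summed to 844, 929.8 and 812 FPKM, led by Sparc (179.9, 200.2 and 160.1 FPKM), Gsn (140.2, 155 and 159.5 FPKM) and the proteoglycan Dcn (123, 131 and 117 FPKM). The endothelial list (15 genes) summed to 176, 169 and 140.2 FPKM, led by the junction proteins Cdh5 (28.4, 30.8 and 26.3 FPKM) and Pecam1 (24.4, 27.0 and 19.8 FPKM). The fibroblast sum was thus 5.36 ± 0.508 times (SD, n = 3) the endothelial sum but 2.63 with medians of the members in place of sums, so the ratio depends on which genes each list holds. The smooth muscle and pericyte list summed to 877, 1059.8 and 855 FPKM, of which Des, a gene of the muscle fibre as well, made most. Its next gene, the pericyte marker Rgs5, had 80.4, 79.7 and 70.8 FPKM, and smooth muscle actin (Acta2) 31.7, 29.5 and 28.5 FPKM.

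Of 11 adipocyte genes, 5 reached 1 FPKM. The list summed to 368, 308 and 314 FPKM, of which Fabp4, which capillary endothelium also makes, gave 313, 259.8 and 252 FPKM of it. Next came Plin4, a lipid droplet protein, at 43.4, 32.2 and 45.5 FPKM and the complement factor Cfd at 5.21, 8.48 and 10.1 FPKM. Adipoq, the adipocyte hormone adiponectin, chosen here after its value was seen, was at 0.741, 1.30 and 1.32 FPKM. Satellite cell genes, markers of the muscle stem cell, summed to 81.6, 93.2 and 77.6 FPKM, of which Cd34 and Itga7, shared with other cells, gave most. Pax7, the defining factor of that cell and likewise chosen after its value was seen, was at 0.669, 0.660 and 0.498 FPKM.

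Immune markers were mostly those of macrophages. The macrophage list (18 genes) summed to 173, 231 and 159 FPKM, led by Lyz2 (84.6, 112 and 76.1 FPKM) and the complement genes C1qb (15.2, 19.5 and 13.4 FPKM) and C1qa (13.3, 18.2 and 12.9 FPKM). Replicate 2 was highest in 14 of 15 genes at 1 FPKM or more under each of the 3 scalings, against 30.9%, 32.6% and 34.5% of all genes as deposited, at equal totals and after median-ratio scaling. Replicate 2 was also highest in 12 of 16 fibroblast genes under each scaling, against the same shares. T and natural killer markers summed to 1.79, 1.98 and 1.91 FPKM over 14 genes. Neutrophil markers summed to 0.596, 2.01 and 1.36 FPKM over 10 genes, of which Ly6g, Mpo, Elane and Ngp were at 0 in all 3 libraries. The B and plasma cell sum of 29.2, 19.8 and 29.8 FPKM was nearly all Ighm, at 26.9, 17.5 and 27.6 FPKM.

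Nerve and tendon added less. The Schwann cell list, genes of the cells that wrap peripheral axons, summed to 37.6, 25.8 and 22.1 FPKM. All 4 Schwann genes at 1 FPKM or more were highest in replicate 1 and lowest in replicate 3 under each of the 3 scalings, where 26.9% and 27.7% of all genes were as deposited, 14.0% and 17.1% at equal totals and 31.3% and 34.9% after median-ratio scaling. The tendon list summed to 83.6, 78.0 and 58.8 FPKM, with Thbs4 at 34.8, 29.5 and 25.4 FPKM and 8 of 9 genes lowest in replicate 3 (7 at equal totals, 8 after median-ratio scaling), against 27.7%, 17.1% and 34.9% of all genes. The axonal gene Nefl was at 0 in all 3 libraries and Stmn2 at 2.26, 1.67 and 1.90 FPKM.

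Transcripts of several epidermal genes were seen only or mostly in replicate 2. Krt10, an epidermal keratin, was at 0.88, 5.53 and 1.27 FPKM (55, 378 and 84 reads), so such transcripts were not absent from replicates 1 and 3. Lor, a protein of the cornified skin surface, was at 0, 2.18 and 0 FPKM and Krt1, a keratin of the epidermis, at 0, 1.48 and 0 FPKM, which in replicate 2 is 125 and 211 reads. In all, 10 genes reached 1 FPKM and 20 reads in replicate 2 with at most 3 reads in each other library: Dmkn, Krt1, Krt14, Krt5, Krt77, Lce1a1, Lce1f, Lce1m, Lgals7 and Lor. No gene met the same criterion in replicate 1 or in replicate 3. The keratinocyte list summed to 1.68, 13.6 and 2.08 FPKM, and 0 reads leaves room for a level up to the 3-read floor given above. Its part in the higher macrophage and fibroblast levels of replicate 2 was not tested.

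**Figure D4:**
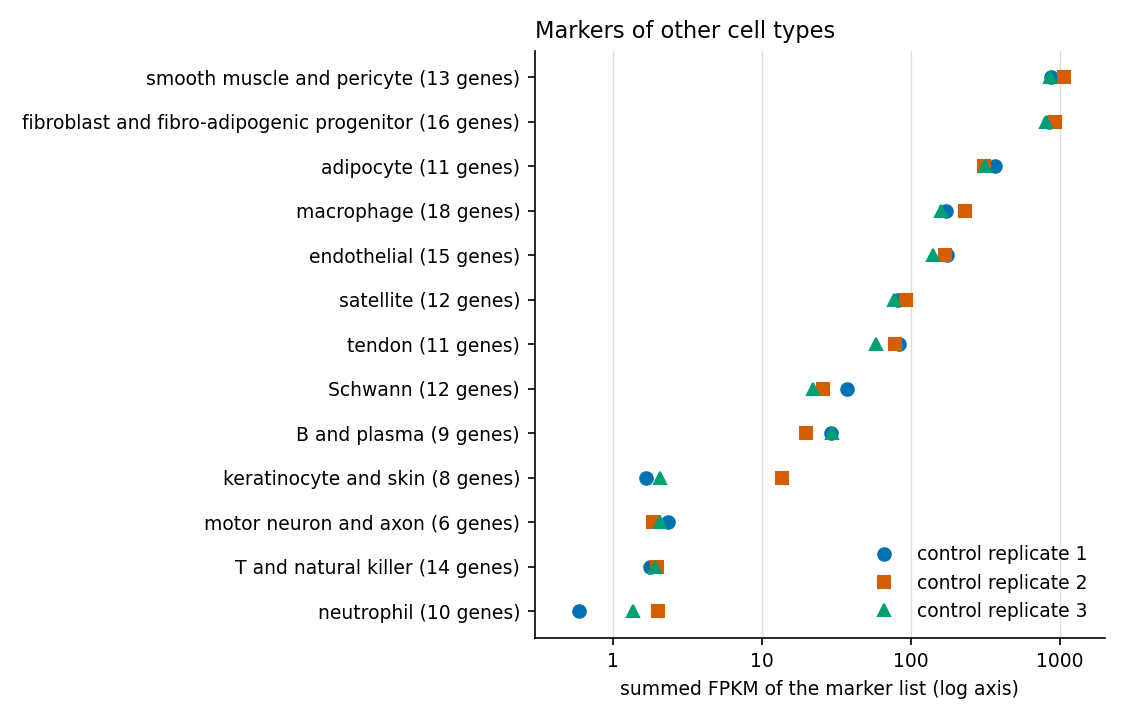
Summed FPKM (log axis) of 13 marker lists for cells other than muscle fibres, with a symbol for each control library and the number of genes in parentheses. Sums span from about 1000 FPKM for fibroblast and smooth muscle lists to about 1 FPKM for neutrophils, and keratinocyte markers reach 13.6 FPKM in replicate 2 against 1.68 and 2.08 FPKM.

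Between libraries, genes at 1 FPKM or more had a median SD of 0.10 on the log2(FPKM + 1) scale (n = 3 libraries). The ratio of the highest to the lowest library exceeded 1.5 for 975 genes and 2 for 233 genes, or 2.21% of 10544. Without replicate 1, 2 or 3 the count above 2 was 133, 108 and 101. Among the gene lists, cytosolic ribosomal proteins had the smallest median coefficients of variation (5.08%), and nuclear oxidative phosphorylation genes had 6.03%. Developmental and regeneration genes had 33.2% and Schwann cell genes 35.2%, with median counting errors of 4.9% and 4.38%.

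The most variable named genes with many reads belonged to different processes. Nr4a3, an immediate early nuclear receptor, stood at 7.53, 5.89 and 0.996 FPKM and Cntfr, a cytokine receptor subunit, at 2.89, 1.75 and 11.3 FPKM. Tnfrsf12a, the receptor of the cytokine TWEAK, stood at 53.1, 58.8 and 14.3 FPKM. In all 3 it was replicate 3 that stood apart, low for Nr4a3 and Tnfrsf12a and high for Cntfr. Replicate 3 was also low for Retnla (31.7, 34.9 and 10.3 FPKM), a secreted protein of alternatively activated macrophages and fat. Otud1, a deubiquitinase, was low in replicate 2 instead, at 10.4, 2.54 and 12.3 FPKM. Mustn1, a small nuclear protein of muscle and skeleton, was high there, at 53.0, 132 and 40.1 FPKM. The 15 named by size also held Ankrd1, the skin genes Krt10 and Krtdap, and 5 short RNAs, RNase_MRP, U3, Mir425, Mir5133 and mt-Te, on which each read adds more FPKM than on a longer gene.

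The steadiest genes at 10 FPKM or more were Shfm1, a small proteasome subunit, within 149.8 to 150.1 FPKM, and Rer1, a sorting receptor of the endoplasmic reticulum, at 39.1, 39.1 and 39.2 FPKM. Lap3, Frg1, Tmem66, Vdac3, Srp54b, Arhgap10, Ptcd3 and Tm2d2 completed the 10. Their spread was smaller than counting error, which for Shfm1 was 0.781% against a coefficient of variation of 0.0922%, so the ranking among them holds no information on stability.

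Further lists were counted by library. In replicate 1, 37 of 41 nuclear oxidative phosphorylation genes were highest, against 26.9% of all genes. At equal totals 27 were, against 14.0% of all, and after median-ratio scaling 38 were, against 31.3%. Mitochondrially encoded protein genes gave 11 of 13 highest in replicate 1 under each scaling, against the same 3 shares of all genes, and 13 of 13 lowest in replicate 3 (12 at equal totals, 13 after median-ratio scaling), against 27.7%, 17.1% and 34.9%. For fatty acid genes 18 of 20 were highest in replicate 1 (13 and 18), against 26.9%, 14.0% and 31.3%. Ribosomal protein genes gave 32 of 38 highest in replicate 2 (34 and 31), against 30.9%, 32.6% and 34.5%. Stress and heat shock genes gave 15 of 16 lowest in replicate 3 (14 and 15), against 27.7%, 17.1% and 34.9%. The heat shock list was led by the small chaperone of muscle Hspb6, with 449.5, 686 and 326 FPKM. The choice of scaling moved the background itself: 2834, 3262 and 4448 of 10544 genes were highest in replicates 1, 2 and 3 as deposited, 1473, 3433 and 5638 at equal totals, and 3303, 3641 and 3600 after median-ratio scaling.

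**Figure D5:**
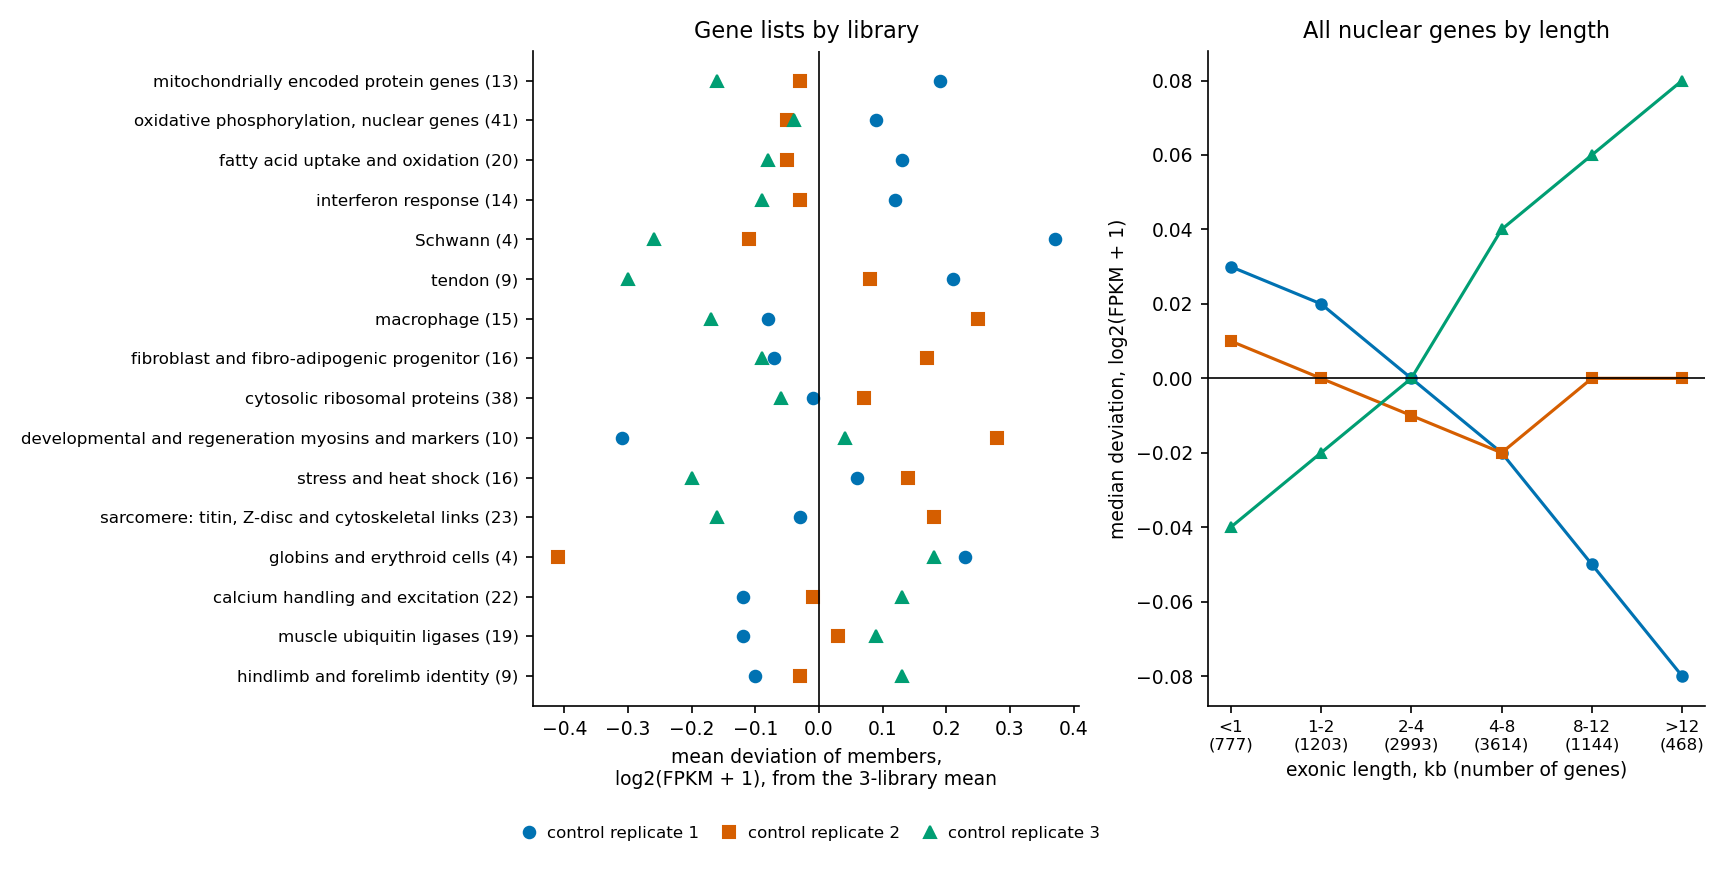
Left, the mean deviation of each list's members from the 3-library mean on the log2(FPKM + 1) scale in each control library, with the number of genes at 1 FPKM or more in parentheses; right, the median deviation of nuclear genes by exonic length in kilobases. Genes over 12 kilobases have a median of -0.08 in replicate 1 and 0.08 in replicate 3, and those under 1 kilobase 0.03 and -0.04.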

How the data were processed

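FPKM values of 23231 rows were deposited by the authors, who used mm9 as the genome build and BWA, STAR and HTSeq as tools, per the submitters' processing notes; versions, annotation, strand and the treatment of shared exons are not given in the sources used here. The 3 control columns were used as deposited, and 6 other columns were not used. Levels, shares of the summed FPKM and ratios within a library were computed for each library, with mean and SD; no test was made. Spread used log2(FPKM + 1) for genes with a mean of at least 1 FPKM. Depth was recovered from the steps of low FPKM values with GENCODE M21 exonic lengths (21334 of 23231 rows): of 17364 values under 50 reads, 72.3% were whole within 0.1 reads. Recovered reads served only for floors and counting error. Intervals of that kind cover counting error only.

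Genes were named by rule: the 30 of highest mean, every member of the fibre type lists and of 44 families, the 4 most abundant members of every other list with defining markers at 0, and the 15 most and 10 least variable named genes (the latter at 10 FPKM or more). The values of some genes under this rule are not reported here. Members and lists (42, of which 13 were for other cell types) were chosen with earlier results of these data known. Of their genes, 662 matched by symbol, 15 by Ensembl identifier and 5 had no row. The row Pgm2 is the gene now called Pgm1. Near-identical copies were sought with blastn 2.17.0 (identity of at least 98% over at least 100 bases). Positions and promoters are RefSeq's on GRCm38.p6, not those of the deposited table. Depth recovery was tested, and the spread statistics were run, on data simulated with the same gene lengths that the recovery uses. Shares, lists, ratios and the search for copies were not tested in this way. Computing used pandas 2.3.3 and numpy 2.4.6 under Python 3.11.15, with matplotlib 3.10.9 for figures. Alternatives were other thresholds, pseudocounts, scalings and averages, the total without mitochondrial genes, medians in place of sums, and each library left out; the library order of list members under other scalings was added after the data were seen.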

Additional observations from a re-analysis of the deposited data

How the results depend on the processing

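No paired analysis was possible because only 1 group was described and no groups were compared. The number of genes at a threshold of 5 FPKM was 5341 in place of 10544 at 1 FPKM. Without mitochondrially encoded genes in the total, the 30 most abundant genes held 43.6%, the thin filament list 13.6%, glycolysis and glycogen 6.03% and nuclear oxidative phosphorylation 3.76%, since the total is smaller. The fibroblast to endothelial ratio was 2.63 with medians of the members in place of sums. The number of genes whose highest library exceeded the lowest more than 2 times was 5885 with no filter on low values, 49 at a mean of at least 5 FPKM, and 101 to 133 with each control library left out in turn, where fewer libraries are compared. Adding 1 FPKM to each gene moved 25 of 61 log2 ratios by more than their SD and reversed 0. With a library left out, the log2 ratio of Myh4 to Myh7 went from 14.15 to 12.85 (without replicate 3) and 15.39 (without replicate 1), and that of Myh4 to Myh1 from 1.53 to 1.09 (without replicate 3). The recovered depth limits levels under about 0.1 FPKM on a 1 kilobase gene, and ratios to Myh7, Aldoc, Ryr2, Myf5, Pdk3, Pitx1 and Tbx5 rest on fewer than 20 reads in at least 1 library.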

Other observations

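Some genes place the muscle in the body. Hoxc10, a homeobox gene of the hindlimb region, stood at 27.1, 30.8 and 33.0 FPKM in control replicates 1, 2 and 3, and Lbx1, a factor of migrating limb muscle precursors, at 20.5, 20.4 and 22.7 FPKM. All 9 limb identity genes at 1 FPKM or more were highest in replicate 3 under each of the 3 scalings, where 42.2% of all genes were as deposited, 53.5% at equal totals and 34.1% after median-ratio scaling. The forelimb factor Tbx5 stayed below the hindlimb factor Tbx4 in each library, with as few as 2 reads of Tbx5. Tbx4 itself, under 1 FPKM and so not among the 9, had 0.833, 0.910 and 0.622 FPKM, lowest in replicate 3. Pitx1, also a hindlimb factor, was lower than Tbx4 by 2.82, 4.33 and 12.9 times, with as few as 4 reads. Pitx1 was thus lowest in replicate 3 as well, so both hindlimb factors went against the order of the 9. Of the 16 genes of the limb list, 9 reached 1 FPKM. The Y-linked genes Eif2s3y (12.3, 10.6 and 11.0 FPKM) and Ddx3y (8.93, 9.94 and 11.4 FPKM) were present in each library, and Xist, picked after its value was seen, was at 0, 0 and 0.00369 FPKM, the last on 2 reads. Globin transcripts, which mark blood in the tissue, were lowest in replicate 2: Hbb-b1 had 108, 68.0 and 102 FPKM and Hba-a1 77.2, 50.3 and 78.2 FPKM, although globin copies are near-identical and their levels uncertain.

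Other lists gave values that belong to no section above. Nr1d1, a repressor of the circadian clock, led its list with 48.9, 48.5 and 45.0 FPKM, ahead of Tef (29.0, 28.3 and 32.4 FPKM) and Bhlhe40 (27.9, 31.1 and 28.7 FPKM). Among immediate early genes the nuclear receptor Nr4a1 had 44.5, 38.4 and 58.1 FPKM and Jun 27.0, 24.4 and 28.7 FPKM. Dusp1, a phosphatase of stress kinases, had 18.5, 10.5 and 22.1 FPKM. H19, an imprinted long non-coding RNA, was by far the most abundant of its list, at 422, 451 and 469 FPKM, with Malat1 at 40.8, 33.8 and 39.9 FPKM. Vegfa, the angiogenic factor, had 70.7, 39.6 and 52.7 FPKM and Mstn, the muscle growth inhibitor myostatin, chosen after its value was seen, 7.54, 8.18 and 9.11 FPKM. Interferon-induced genes were low, led by Ifi27l1 (15.6, 15.6 and 14.8 FPKM) and Bst2 (17.5, 15 and 13.4 FPKM), with 12 of 14 highest in replicate 1 (9 at equal totals, 12 after median-ratio scaling), where 26.9%, 14.0% and 31.3% of all genes were.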
